A study of Mus musculus with 14 samples.

Results

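Embryoid bodies (EBs) of mouse ES cells labelled *Taf9b* KO were compared with EBs of cells labelled WT at day 6 of motor neuron differentiation. The comparison takes every locus above 1 FPKM in at least 1 of the 2 day 6 libraries, which holds for 13006 of the 23152 loci in the table, and gives each the log2 ratio of its FPKM in the library labelled KO over that in the library labelled WT. FPKM counts the fragments assigned to a transcript after dividing by transcript length and by library size, so it compares genes as well as libraries. The library labelled WT came from a JM8 clone with the genotype label wild type, and the library labelled KO from the Taf9b_BG10 clone with the genotype label TAF9B -/-, both C57BL/6. According to the study, the KO line was obtained from the KOMP Repository and carries a *LacZ-Neo* cassette in place of the protein-coding exons of the X-linked gene *Taf9b*. Each side is thus 1 clone and 1 library. Both sides were differentiated with retinoic acid and the smoothened agonist SAG, and their poly-A RNA was sequenced. Undifferentiated ES cells and EBs at days 2 and 4 were sequenced in the same way, again as 1 library per side, and TAF9B and RNA POL2 peaks were mapped by ChIP-seq in WT motor neuron EBs of another line, the HBG3 clone, at a later day. Without replicates no difference at day 6 could be tested, so all comparisons below are between 2 libraries, and "lower" and "higher" refer to the library labelled KO.

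TAF9B is a paralog of TAF9, a histone-fold subunit shared by TFIID, which recognizes core promoters, and by SAGA-type coactivator complexes, which acetylate histones. In the EB protocol, retinoic acid turns cells neural and gives them a caudal identity by inducing *Hox* genes, and activation of the hedgehog pathway by SAG ventralizes them to progenitors that express *Olig2* and *Nkx6-1*. Proneural bHLH factors then take these progenitors out of the cell cycle, and the LIM homeodomain factors and *Mnx1* specify motor neurons.

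*Taf9b* (chrX:103402213-103416497, minus strand, mm9) went against the labels at day 6. Its day 6 level was 1.37 FPKM on the side labelled WT and 4.01 FPKM on the side labelled KO (log2 ratio 1.55). Its paralog *Taf9*, whose locus is listed together with *Ak6*, was at 145 and 118 FPKM (log2 ratio -0.29). The log2 ratio of *Taf9b* was above 0 at the earlier stages too, at 2.51 in ES cells, 2.98 at EB day 2 and 1.12 at EB day 4. The tables give 1 value per locus and do not show which part of the *Taf9b* locus, or of the cassette in its place, the fragments came from. Every direction given here is therefore by label.

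Marker genes were used to check that the day 6 cultures hold motor neurons. In the library labelled WT, 7 of 7 motor neuron markers were above 1 FPKM, from 1.05 FPKM for *Chat* to 32.2 FPKM for *Slc18a3*, the vesicular acetylcholine transporter. In the library labelled KO the highest of the 7 was *Mnx1* at 1.62 FPKM, and *Chat* was listed at 0. The summed FPKM of the 7 genes was 78.3 against 3.36. The sum of 5 progenitor markers (*Olig2*, *Nkx6-1*, *Pax6*, *Irx3* and *Nkx2-2*) was 106 against 19.2 FPKM, and that of 9 general neuron markers 1078 against 138.5 FPKM, with 5 of 5 and 9 of 9 past 2-fold lower. Progenitor factors outside this marker set did not all follow, such as *Olig1*, *Nkx6-2* and *Nkx2-9*. The label motor neuron thus fits the markers of the library labelled WT, whereas in the library labelled KO the 7 motor neuron markers were at 1.62 FPKM or less. Markers of several other cell types were higher. The summed FPKM of 5 pluripotent cell markers was 342 in the library labelled WT and 886 in the library labelled KO, with 4 of 5 past 2-fold higher. That of 6 fibroblast markers, which bear on carried-over embryonic feeder cells, was 46.3 and 125 FPKM, with 4 of 6 past 2-fold higher. The 3 markers of primitive or visceral endoderm above 1 FPKM, *Gata4*, *Gata6* and *Sox17*, were within 2-fold, with ratios from 0.92 to 0.99. The 3 oligodendrocyte markers were lower in sum, 12.02 against 5.69 FPKM, of which *Mbp* made up most. Of the 4 endothelial markers, *Pecam1* was at 6.25 and 19.4 FPKM, and *Cdh5*, *Tie1* and *Kdr* were under 1 FPKM in the library labelled WT, with *Kdr* at 0.488 and 0.376 FPKM. The blood marker *Ptprc* was at 0 in both libraries and the astrocyte markers summed to under 1 FPKM in each. What part these shifts in cell markers have in the ratios below was not tested. In bulk RNA, fewer cells of a type and less RNA of its genes per cell cannot be told apart.

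Across all 13006 loci most differences were small, and at 2-fold the lower and higher loci were nearly equal in number. The median log2 ratio was -0.003, the middle 50% of loci lay between -0.40 and 0.40, and 63.2% of loci differed by less than 1.5-fold. At 2-fold, 1291 loci (9.93%) were lower and 1367 (10.5%) were higher. At 4-fold, lower loci outnumbered higher ones, with 514 (3.95%) against 299 (2.3%). Among the 11733 loci above 1 FPKM in both libraries, 838 (7.14%) were lower and 904 (7.7%) higher. The lower loci, by definition stronger in the library labelled WT, had a median of 7.55 FPKM there and 1.81 FPKM in the library labelled KO. The higher loci went from a median of 1.92 to 6.07 FPKM. The number of fragments behind each value is unknown. Weak loci passed 2-fold more often: of 1777 loci with a mean between 0.5 and 2 FPKM, 18.9% were lower and 23.4% higher, and of 1026 loci above 100 FPKM, 5.07% and 4.87%.

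**Figure D1:**
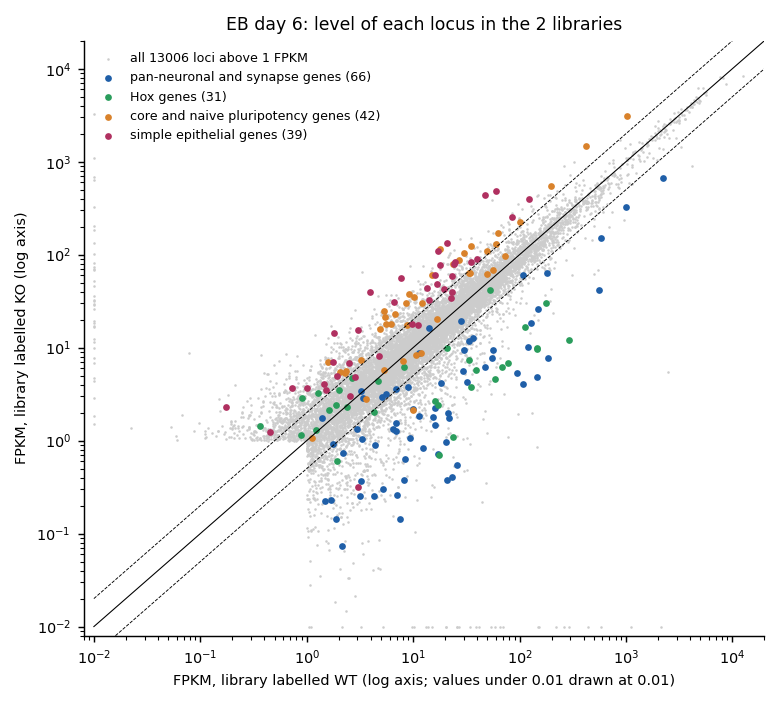
FPKM of each of the 13006 loci at EB day 6 in the library labelled WT (horizontal, log axis) and in the library labelled KO (vertical, log axis), with the line of equal values and dashed lines at 2-fold; each point is 1 locus and there are no replicates. Neuronal and Hox genes lie mostly below the diagonal, and pluripotency and simple epithelial genes mostly above it.

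The subunits of TFIID, SAGA, ATAC and mediator stayed within 2-fold, apart from a few TFIID paralogs. Of the 17 genes on the TFIID list, which holds paralogs too, 16 were above 1 FPKM, 0 were past 2-fold lower and 3 were higher, with a median of -0.04. Besides *Taf9b*, the 3 were *Taf7l*, a TAF7 paralog with a role in spermatogenesis, at 2.18 and 6.69 FPKM (1.62), and *Taf4b*, a TAF4 paralog of ovarian cells, at 1.75 and 3.94 FPKM (1.17). Each of the 3 encodes a paralog of another subunit, and the other 13 genes lay between -0.64 for *Taf13* and 0.64 for *Taf7*. Among 28 subunits of SAGA and ATAC none was past 2-fold in either direction. They ran from -0.97 for *Tada1* to 0.64 for *Kat2b*, which encodes the acetyltransferase PCAF and was at 5.61 and 8.73 FPKM. The 31 mediator subunits above 1 FPKM likewise held 0 genes past 2-fold, with a median of -0.13.

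**Figure D2:**
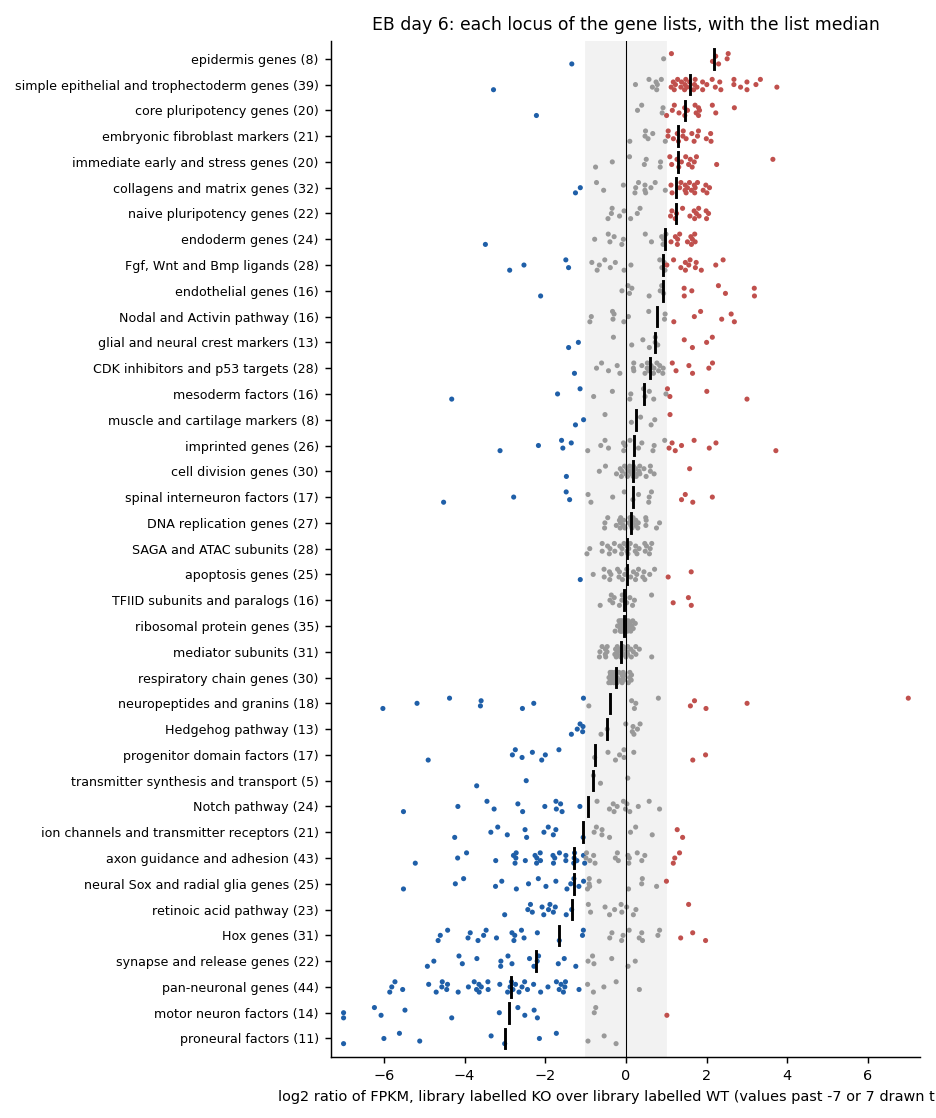
Log2 ratio of FPKM at EB day 6 (horizontal) for each locus above 1 FPKM of the gene lists with at least 5 such members (rows, number in parentheses); blue points are past 2-fold lower, red points past 2-fold higher, and the black bar is the list median. The medians of the pan-neuronal, synapse, proneural, motor neuron, *Hox* and retinoic acid lists lie to the left of the grey 2-fold band, those of the ribosomal, respiratory and replication lists within it, and those of the epithelial, fibroblast and both pluripotency lists to its right.

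Genes that all neurons share were the list with the most lower members. Of 47 pan-neuronal genes, 44 were above 1 FPKM, 39 of them (88.6%) were past 2-fold lower and 0 higher, with a median log2 ratio of -2.86. Their summed FPKM was 5925 in the library labelled WT and 1480 in the library labelled KO. With both libraries above 1 FPKM, 25 of 30 were lower. The cytoskeletal genes were the most abundant. *Tuba1a*, an alpha-tubulin of young neurons, was at 2218 and 672 FPKM (-1.72), *Stmn1*, which destabilizes microtubules, at 1000 and 328 FPKM (-1.61), and *Tubb2b* at 583 and 153 FPKM (-1.93). Several genes at lower levels had larger ratios. *Gap43*, a protein of growth cones, was at 184 and 7.82 FPKM (-4.55). *Nefm*, the medium neurofilament, was at 107 and 4.09 FPKM (-4.70), and *Ina*, an alpha-internexin, at 95.7 and 5.36 FPKM (-4.16). The lowest ratios were those of regulators of neuronal RNA and transcription. *Celf3*, a splicing factor, was at 23.4 and 0.404 FPKM (-5.86), *Scrt2*, a repressor of the Scratch family, at 20.9 and 0.373 FPKM (-5.80), *Myt1* at 7.52 and 0.142 FPKM (-5.73), and the RNA-binding protein gene *Elavl4* at 25.6 and 0.552 FPKM (-5.54). The 5 members within 2-fold were *Mapt*, *Rcor2*, *Rbfox2*, *Celf5* and *Nefh*, the last being the single member with a ratio above 0, at 1.38 and 1.74 FPKM.

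Genes for transmitter release followed the pan-neuronal genes. Of 22 synapse and release genes above 1 FPKM, 16 were lower and 0 higher, with a median of -2.24, and their sum was 415 against 84.8 FPKM. *Sncg*, a gamma-synuclein, had the lowest ratio at 146 and 4.83 FPKM (-4.92). *Snap25*, a SNARE of the plasma membrane, was at 7.08 and 0.261 FPKM (-4.76), and *Syt11*, a synaptotagmin, at 32.4 and 4.27 FPKM (-2.92). *Sypl*, a synaptophysin-like gene that is not restricted to neurons, had the highest ratio at 14.02 and 16.5 FPKM (0.23). Among 21 ion channel and transmitter receptor genes 11 were lower and 2 higher. Above 1 FPKM in both libraries 3 of 11 were lower and 1 higher. The nicotinic acetylcholine receptor subunits of that list ran from *Chrnb2* at 4.99 and 0.263 FPKM (-4.25) to *Chrna7* at 1.47 and 0.706 FPKM (-1.06). Both of these passed the 1 FPKM minimum only through the library labelled WT. The higher genes included the glutamate receptor gene *Gria3* at 0.841 and 2.23 FPKM (1.41).

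Axon guidance and adhesion genes were lower in 26 of 43 cases and higher in 3, with a median of -1.28. Above 1 FPKM in both libraries 16 of 31 were lower and 3 higher. *Cntn2*, a contactin of outgrowing axons, was at 33.9 and 0.909 FPKM (-5.22), *Robo2*, a Slit receptor, at 3.87 and 0.215 FPKM (-4.17), and *Unc5a*, a netrin receptor, at 21.4 and 1.38 FPKM (-3.95). *Ncam1*, a cell adhesion molecule, was at 25.4 and 3.77 FPKM (-2.75). The 3 higher genes were *Sema5a* (1.33), *Unc5b* (1.21) and *Sema3e* (1.17). Neuropeptide and granin genes did not share a direction: 8 of 18 were lower and 5 higher. Above 1 FPKM in both libraries 3 of 10 were lower and 2 higher. *Sst*, the somatostatin gene, had the lowest ratio at 130 and 1.99 FPKM (-6.03). The granin *Scg3* was at 23.9 and 0.660 FPKM (-5.18) and *Chgb* at 8.70 and 0.420 FPKM (-4.37), whereas *Vgf*, another granin, was at 2.82 and 11.2 FPKM (1.99) and *Penk*, the enkephalin precursor, at 3.12 and 9.45 FPKM (1.6). *Cck* and *Gal* were also higher, and *Calcb* was listed at 0 on the side labelled WT against 1.83 FPKM on the side labelled KO. *Cpe*, which processes peptide precursors, was nearly equal at 74.3 and 82.0 FPKM. Of 5 genes for transmitter synthesis and transport 2 were lower, *Th*, the first enzyme of catecholamine synthesis, at 5.51 and 0.424 FPKM (-3.70), and the monoamine transporter gene *Slc18a2* at 1.66 and 0.299 FPKM (-2.47). Both were above 1 FPKM in the library labelled WT only, and 0 of the 3 genes above 1 FPKM in both libraries were past 2-fold.

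Among 14 motor neuron factors 11 were lower and 1 higher, with a median of -2.91. Most had little left to measure in the library labelled KO: 5 of the 14 were above 1 FPKM in both libraries, and of those 2 were lower and 1 higher. *Lhx4* had the lowest ratio at 2.83 and 0.0214 FPKM (-7.05). *Slc18a3* was at 32.2 and 0.479 FPKM (-6.07) and the LIM homeodomain gene *Lhx3* at 14.9 and 0.335 FPKM. *Phox2a*, a homeobox gene of hindbrain visceral motor neurons, was at 3.11 and 1.80 FPKM (-0.78). *Ret*, the receptor for GDNF-family ligands, was at 7.598 and 1.66 FPKM (-2.19). The higher gene was *Prph*, the intermediate filament peripherin, at 16.7 and 33.8 FPKM (1.01). Factors of spinal interneurons were mixed, with 4 of 17 lower and 4 higher. Above 1 FPKM in both libraries 1 of 11 was lower and 4 were higher. *Prdm8* (-4.52), *Lhx1* (-2.78), *Pax2* (-1.48) and *Pou4f1* (-1.40) were lower. *Foxd3* (2.14), *Nkx2-9* (1.66), *Gata2* (1.47) and *Gata3* (1.38) were higher, and these 4 are also expressed outside interneurons.

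Progenitor domain factors did not move as 1 block. Of 17 members 8 were lower, 7 within 2-fold and 2 higher, with a median of -0.78. *Nkx6-1* was at 32.2 and 1.08 FPKM (-4.90), *Olig2* at 34.1 and 8.02 FPKM (-2.09) and *Irx3*, which marks progenitors of intermediate position, at 25.4 and 8.04 FPKM (-1.66). *Olig1*, the chromosomal neighbour of *Olig2*, was at 8.39 and 7.52 FPKM (-0.16), and *Nkx6-2* at 5.15 and 4.31 FPKM (-0.26). The 2 higher factors were *Nkx2-9* and *Msx2*, a dorsal homeobox gene, at 2.30 and 9.03 FPKM (1.97). Of 25 neural Sox and radial glia genes 15 were lower, with a median of -1.29. *Sox3* was at 64.9 and 7.68 FPKM (-3.08) and *Sox1* at 5.03 and 2.24 FPKM (-1.17), but *Sox2*, which pluripotent cells also express, was at 73.0 and 95.7 FPKM (0.39). *Msi1*, an RNA-binding protein of neural progenitors, was at 52.0 and 11.6 FPKM (-2.17), and *Vim* at 311 and 196 FPKM (-0.66).

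Proneural factors and many Notch pathway genes were lower. Of 11 proneural factors 8 were lower and 0 higher, with a median of -3.01. Above 1 FPKM in both libraries 3 of 6 were lower and 0 higher, with a median of -1.33. *Neurog1* was at 29.7 and 2.93 FPKM (-3.34), *Nhlh2* at 30.2 and 0.471 FPKM (-6.00) and *Neurod4* at 8.47 and 0.245 FPKM (-5.11). The broadly expressed bHLH partners *Tcf3* (-0.94), *Tcf4* (-0.54) and *Tcf12* (-0.24) were the 3 members within 2-fold. In the Notch pathway 12 of 24 genes were lower and 0 higher, and members of 1 kind did not all move. The ligands *Dll3* (-4.17), *Dll4* (-3.27) and *Dll1* (-2.01) and the targets *Hes5* (-5.51), *Hey1* (-2.68) and *Nrarp* (-2.56) were lower, whereas the ligands *Jag1* (-0.01) and *Jag2* (0.31) were within 2-fold. Among the receptors *Notch1* was at 5.42 and 2.46 FPKM (-1.14), *Notch3* at 7.73 and 7.87 FPKM (0.02) and *Notch2* at 1.98 and 2.95 FPKM (0.58). *Hes1*, a target that many cell types express, was at 39.0 and 33.6 FPKM (-0.22). *Rbpj*, the DNA-binding factor of the pathway, had the highest ratio at 33.5 and 59.7 FPKM (0.83). In the hedgehog pathway 5 of 13 genes were lower, 0 higher and 8 within 2-fold, with a median of -0.46. A minimum of 5 FPKM left fewer genes of this list, of which 80% were lower, with a median of -1.07. The lower genes included the target and receptor gene *Ptch1* at 11.2 and 4.41 FPKM (-1.35), the target *Gli1* at 6.98 and 3.34 FPKM (-1.06) and *Smo*, the protein that SAG binds, at 26.6 and 12.7 FPKM (-1.07). The target *Hhip* was at 1.23 and 1.38 FPKM (0.16) and *Gli3* at 2.16 and 2.63 FPKM (0.29).

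Genes of the retinoic acid response were strongly expressed in both libraries. Of 23 members above 1 FPKM 12 were lower and 1 higher, with a median of -1.35 and sums of 2572 and 825 FPKM, and all 23 were above 1 FPKM in both. *Stra8*, named for its induction by retinoic acid, was the most abundant at 692 and 199 FPKM (-1.80). The retinoic acid binding protein genes *Crabp2* and *Crabp1* were at 552 and 68.7 FPKM (-3.01) and at 483 and 143 FPKM (-1.75). The degrading enzymes *Cyp26a1* (173 and 68.0 FPKM, -1.34) and *Cyp26b1* (67.3 and 15.9 FPKM, -2.08) were lower too. Receptors differed less: *Rarb*, itself a target, was at 27.1 and 14.8 FPKM (-0.88), *Rara* at 40.6 and 28.3 FPKM (-0.52), and *Rarg* was the 1 higher member at 21.3 and 62.6 FPKM (1.55). The HOX cofactor genes *Meis1* at 44.8 and 8.68 FPKM (-2.37), *Meis2* at 39.1 and 10.3 FPKM (-1.92) and *Pbx3* at 20.4 and 3.78 FPKM (-2.43) were lower.

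The 4 *Hox* clusters divided by position. All 23 genes of paralog groups 1 to 8 were above 1 FPKM, 18 were lower and 0 higher, with a median of -2.76, and their sum was 1349 against 185 FPKM. Of the 16 genes of groups 9 to 13, 8 were above 1 FPKM, 0 were lower and 3 higher, with a median of 0.62 and sums of 21.3 and 29.4 FPKM. The strongest genes were in the Hoxb and Hoxa clusters. *Hoxb5* was at 291 and 11.99 FPKM (-4.60), *Hoxa5* at 175 and 30.5 FPKM (-2.53), *Hoxb6* at 147 and 9.77 FPKM (-3.92) and *Hoxb8* at 145 and 9.99 FPKM (-3.86). *Hoxd3* had the lowest ratio, at 17.6 and 0.698 FPKM (-4.66). *Hoxb1*, an early target of retinoic acid, was at 20.8 and 10.02 FPKM (-1.05). The 3 higher genes were *Hoxa11* (1.97), *Hoxa10* (1.66) and *Hoxc13* (1.36), each under 4 FPKM in both libraries. *Hoxa11* and *Hoxa10* were above 1 FPKM in the library labelled KO only. Of the 26 *Hox* genes above 1 FPKM in both libraries 16 were lower and 1 higher. *Hoxa6*, *Hoxa7*, *Hoxc6* and *Hoxc8*, genes of groups 6 to 8 outside the Hoxb cluster, were within 2-fold at under 5 FPKM.

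**Figure D3:**
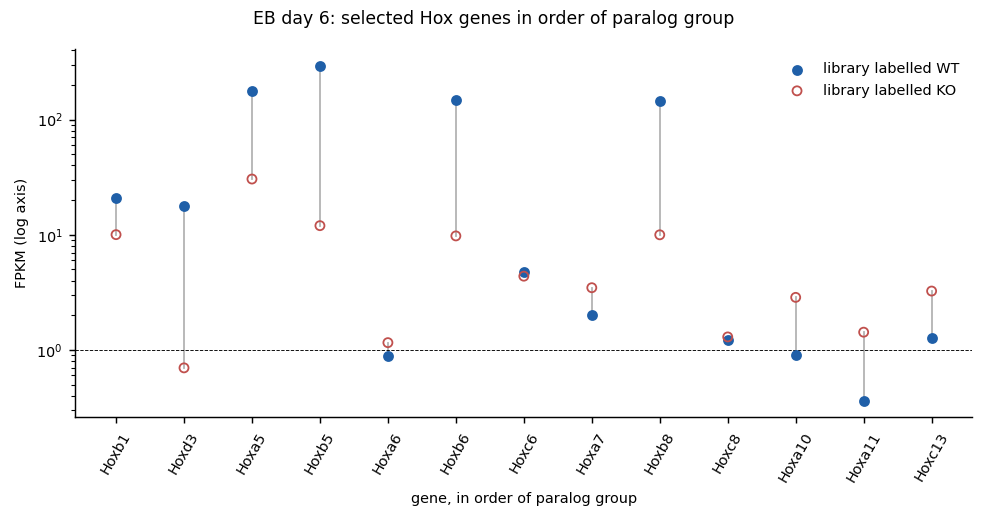
FPKM at EB day 6 (vertical, log axis, dashed line at 1 FPKM) of the 13 Hox genes named in the text, ordered by paralog group (horizontal), with filled blue points for the library labelled WT and open red points for the library labelled KO; each point is 1 library. The blue points stand above the red ones for the drawn genes of groups 1 to 5 and for *Hoxb6* and *Hoxb8*, and the points lie close together or cross over for the others.

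Peaks of TAF9B lay beside several of these genes. Windows of 200 bases around the midpoint of a TAF9B peak are shown for 3 lower genes, since each peak lies past 500 bp and within 5 kb of an annotated transcription start site (TSS) of the gene and outside annotated exons. They were read from the mm9 genome, plus strand, 5′ to 3′, and capitals mark the E-box letters CANNTG that bHLH factors can bind. The windows are those of *Hoxb6* (chr11:96155996-96156195, intronic to annotated transcripts of 0610040B09Rik and *Hoxb6*, 2305 bp downstream of the nearest start and upstream of the quantified locus at chr11:96160485-96162883), *Hoxb8* (chr11:96140156-96140355, 2964 bp upstream of the TSS, between genes) and *Nefm* (chr14:68743680-68743879, 876 bp upstream of the nearest annotated TSS, between genes in that annotation but inside the span of the quantified locus at chr14:68737602-68749428).
Hoxb6: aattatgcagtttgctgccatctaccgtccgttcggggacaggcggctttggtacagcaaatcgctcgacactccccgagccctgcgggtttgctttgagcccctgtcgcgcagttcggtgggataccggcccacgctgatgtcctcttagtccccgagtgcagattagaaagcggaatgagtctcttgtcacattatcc
Hoxb8: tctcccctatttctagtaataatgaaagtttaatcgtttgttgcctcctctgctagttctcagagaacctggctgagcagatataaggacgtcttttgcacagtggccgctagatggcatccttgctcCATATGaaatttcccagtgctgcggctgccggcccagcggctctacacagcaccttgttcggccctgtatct
Nefm: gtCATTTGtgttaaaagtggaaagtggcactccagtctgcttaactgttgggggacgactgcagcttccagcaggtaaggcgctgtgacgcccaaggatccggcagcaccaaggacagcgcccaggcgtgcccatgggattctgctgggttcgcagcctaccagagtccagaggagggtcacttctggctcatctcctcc

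The *Hoxb8* and *Nefm* windows hold 1 E-box match each and the *Hoxb6* window holds 0. The MACS score was 296 at the *Hoxb6* peak, 94.3 at *Hoxb8* and 66.5 at *Nefm*. The *Hoxb6* peak overlapped an RNA POL2 peak and the other two did not. For *Nefm* this peak is also the nearest one to its TSS, at 876 bp.

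Pluripotency genes were higher as a group, with large differences between members. Of 20 core pluripotency genes 15 were higher and 1 lower, with a median of 1.46, and of 22 naive genes 14 were higher and 0 lower, with a median of 1.24. All 20 and all 22 were above 1 FPKM in both libraries, so the library labelled WT also held RNA of these genes at day 6. *Dppa5a*, an RNA-binding protein gene of naive cells, was the most abundant at 1026 and 3080 FPKM (1.59). *Spp1* was at 419 and 1473 FPKM (1.81) and *Utf1* at 101 and 224 FPKM (1.15). The highest ratio was that of *Tdgf1*, the Nodal coreceptor CRIPTO, at 17.7 and 114 FPKM (2.69). The lower member was *Lin28b* at 9.90 and 2.13 FPKM (-2.22), while its paralog *Lin28a* was at 55.9 and 68.2 FPKM (0.29). Several naive genes were close to equal. *Zfp42* was at 49.2 and 62.7 FPKM (0.35), *Dppa3* at 16.9 and 20.6 FPKM (0.28), and 3 *Zscan4* copies, which share reads, had ratios from -0.36 to -0.16. In the Nodal and Activin pathway 6 of 16 genes were higher and 0 lower. They were the ligand *Nodal* (14.8 and 48.0 FPKM, 1.70), the inhibitor *Lefty2* (5.78 and 20.8 FPKM, 1.85), *Tdgf1*, *Smad7*, *Inhbb* and *Inhba*. The receptors and *Smad2* and *Smad3* lay between -0.86 and -0.05.

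Simple epithelial and trophectoderm genes had the highest share of higher members among lists of more than 10. Of 39 above 1 FPKM 31 (79.5%) were higher and 1 lower, with a median of 1.58 and sums of 713 and 2841 FPKM, and with both libraries above 1 FPKM 27 of 34 were higher. Keratins and tight junction genes led by level. *Krt18* and its partner *Krt8* were at 60.4 and 484 FPKM (3.0) and at 47.2 and 441 FPKM (3.22). *Cldn4*, a claudin, was at 123 and 400 FPKM (1.70), *S100a6* at 85.0 and 254 FPKM (1.58), *Krt19* at 20.8 and 133 FPKM (2.68) and *Krt7* at 17.0 and 109 FPKM (2.68). *Cdh1*, the E-cadherin that ES cells express as well, was at 24.3 and 79.9 FPKM (1.72), whereas *Cdh2*, the N-cadherin of neural progenitors, was at 25.8 and 7.74 FPKM (-1.74). Some transcription factors of trophectoderm were higher at lower levels: *Cdx2* was at 0.721 and 3.68 FPKM (2.35), *Eomes* at 1.77 and 7.09 FPKM (2.00), *Hand1* at 1.82 and 14.5 FPKM (3.0) and *Tfap2c* at 19.4 and 42.2 FPKM (1.12). Of these, *Cdx2* passed the 1 FPKM minimum only through the library labelled KO. The lower member was *Lgals4* at 3.06 and 0.314 FPKM (-3.28). In the epidermis list 6 of 8 genes were higher, led by *Sfn* at 22.3 and 104 FPKM (2.23) and *Perp* at 21.5 and 95.1 FPKM (2.15), and *Krt10* was lower.

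Matrix and stromal genes were higher too, beside the fibroblast markers given above. Of 32 collagen and matrix genes 18 were higher and 2 lower, with a median of 1.24. *Sparc*, a collagen-binding matrix protein, was at 85.9 and 282 FPKM (1.72), *Fn1* at 17.98 and 53.6 FPKM (1.57) and the basement membrane collagen gene *Col4a1* at 13.01 and 42.4 FPKM (1.71). The 2 lower genes were *Col2a1*, a cartilage and notochord collagen, at 11.2 and 4.68 FPKM (-1.25), and *Fbn2* at 2.70 and 1.23 FPKM (-1.13). Of 21 genes that mark embryonic fibroblasts 15 were higher and 0 lower, with a median of 1.30 and sums of 168 and 436 FPKM. *Mmp2* was at 34.5 and 92.3 FPKM (1.42), *S100a4* at 29.0 and 70.0 FPKM (1.27), and *Ccl2*, a chemokine, had the highest ratio at 1.56 and 6.72 FPKM (2.11). The ES cells were grown on embryonic fibroblast feeders before differentiation, and the share of feeder RNA in either library was not measured.

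Lists of other germ layers were less uniform. In the endoderm list 11 of 24 genes were higher and 1 lower. The 1 lower gene was *Cxcr4*, a chemokine receptor that neurons also express, at 39.6 and 3.54 FPKM (-3.48). The defining extraembryonic markers *Afp* and *Ttr* were under 1 FPKM in both libraries, and the higher genes included the laminins *Lamb1* and *Lamc1* and the collagens *Col4a1* and *Col4a2*, which the matrix list also holds. Of 16 endothelial genes 7 were higher and 1 lower, but above 1 FPKM in both libraries 3 of 11 were higher and 0 lower. *Pecam1*, which ES cells express, was at 6.25 and 19.4 FPKM (1.63), and *Cdh5*, the VE-cadherin, which entered only through the library labelled KO, at 0.159 and 1.44 FPKM (3.19). Mesoderm factors were higher in 4 of 16 cases and lower in 3. *Hand1* and *Eomes* had the highest ratios, and *Hand2* (5.27 and 1.63 FPKM, -1.70), *Foxf1a* and *Isl1*, a motor neuron factor as well, were lower. The gene lists of glia and neural crest held 4 higher and 2 lower of 13. *Erbb3*, a neuregulin receptor, was at 2.37 and 9.48 FPKM (2.00), *Ngfr* at 21.7 and 8.12 FPKM (-1.42) and *Mbp*, a myelin gene, at 10.8 and 4.78 FPKM (-1.18). Among Fgf, Wnt and Bmp ligands and inhibitors 12 of 28 were higher and 4 lower, but above 1 FPKM in both libraries 4 of 18 were higher and 2 lower and the median moved from 0.92 to 0.04. The members included *Fgf4* (2.23), *Wnt7b* (1.56) and *Wnt3a* (1.59) higher and *Gdf11* at 12.2 and 2.12 FPKM (-2.53) lower. Muscle and cartilage markers held 2 lower genes, *Col2a1* and *Sox9*, and 1 higher gene, *Myl7*, of 8. Of the blood and erythroid markers 1 was above 1 FPKM, *Lyz2* at 0.0602 and 1.01 FPKM.

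Housekeeping lists bounded these differences. None of 35 ribosomal protein genes was past 2-fold in either direction, with a median of -0.06 and sums of 104400 and 101600 FPKM, and none of 30 respiratory chain genes was, with a median of -0.24. Of 27 DNA replication genes 0 were past 2-fold, with a median of 0.12, and *Pcna* was at 341 and 327 FPKM. Of 30 cell division genes 1 was lower and 1 higher: *Ccnd2*, a cyclin of neural progenitors, at 64.6 and 23.2 FPKM (-1.48), and *Mybl2* at 56.8 and 170 FPKM (1.58). The 3 Y-linked or X-inactivation genes above 1 FPKM were within 2-fold. *Mki67* was at 5.39 and 6.10 FPKM (0.18). Apoptosis genes were centred on 0, with a median of 0.02, 1 of 25 lower (*Bcl2*) and 2 higher (*Birc3* and *Cidea*). Of 28 CDK inhibitors and p53 targets 6 were higher and 1 lower, with *Pmaip1* at 9.82 and 40.8 FPKM (2.06), *Mdm2* at 48.0 and 106.5 FPKM (1.15) and *Cdkn1a* within 2-fold at 103 and 148 FPKM (0.53). Immediate early and stress genes were shifted as a group: 13 of 20 were higher and 0 lower, with a median of 1.29. *Hspb1*, a small heat shock protein, was at 328 and 993 FPKM (1.6), *Hmox1* at 42.2 and 109 FPKM (1.38) and the AP-1 factor *Fosl1* at 0.420 and 5.25 FPKM (3.64), while *Egr1* was at 5.21 and 4.12 FPKM (-0.34).

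Imprinted genes divided among both directions, with 5 of 26 lower and 8 higher. *Grb10*, an adaptor that restrains growth factor signalling, was at 125 and 14.3 FPKM (-3.12). The neighbours *Meg3* (10.6 and 3.51 FPKM, -1.60), *Rian* (35.1 and 13.7 FPKM, -1.35) and *Dlk1* (17.9 and 3.99 FPKM, -2.17) of the cluster on chromosome 12 were lower, but *Mirg* of the same cluster was at 5.95 and 28.0 FPKM (2.23). *Igf2*, a fetal growth factor, was at 127 and 331 FPKM (1.38), and the zinc finger gene *Plagl1* at 0.492 and 6.47 FPKM (3.72).

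The single loci with the largest ratios were partly outside these lists. Among loci above 1 FPKM in both libraries, *Mir692-1* (chr17:7099578-7099686) was at 2497 and 5.46 FPKM (-8.84), and its ratio was already -6.38 in ES cells, -8.79 at EB day 2 and -10.6 at EB day 4. Its transcript has 109 bases. The lincRNA locus *D930028M14Rik* was at 78.1 and 1.09 FPKM (-6.17). *Mid1* (chrX:166123179-166428729), a ubiquitin ligase gene that crosses the pseudoautosomal boundary of the X chromosome, was at 96.5 and 1.93 FPKM (-5.65), and its ratio was already -2.61 in ES cells. *Btbd17* (-4.83) and *Car14*, a carbonic anhydrase (-4.54), were at 29.5 and 25.9 FPKM in the library labelled WT and near 1 FPKM in the library labelled KO. On the other side *Mir17hg*, the host transcript of an oncogenic miRNA cluster, listed together with *Mir19b-1*, was at 3.29 and 64.4 FPKM (4.29). *Serpinb9e* was at 1.203 and 13.8 FPKM (3.52), *Cryab*, a small heat shock protein, at 2.59 and 20.9 FPKM (3.02), *Crygc*, a crystallin, at 2.82 and 25.2 FPKM (3.16) and *Plaur*, the urokinase receptor, at 4.65 and 35.7 FPKM (2.94). By difference in FPKM, *Mdk*, a heparin-binding growth factor of the embryo, was among those with the largest loss at 3315 and 1443 FPKM (-1.2), and *Ftl1*, a ferritin light chain at 5314 and 6152 FPKM (0.21), was among those with the largest gain.

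Very short transcripts passed 2-fold often, in both directions. Of 90 loci with a transcript under 200 bases 35.6% were lower and 28.9% higher. At 10 FPKM or more in 1 library and under 0.1 FPKM in the other there were 52 loci, 25 present in the library labelled WT and 27 in the library labelled KO, and 51 of them carry the symbol of a microRNA, snoRNA, scaRNA or snRNA. *Snord19* reached 2136 FPKM on the side labelled WT and was listed at 0 on the other, and *Snord58b* was listed at 0 on the side labelled WT and reached 3280 FPKM on the other. Poly-A libraries capture such RNAs poorly, and their values are given without further reading.

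The earlier stages show when these differences are present. In ES cells 71 of 12032 loci (0.59%) were lower and 65 (0.54%) higher, and at EB day 2 167 of 11968 (1.4%) and 142 (1.19%). At EB day 4 560 of 12563 (4.46%) were lower and 1519 (12.1%) higher. Of the 1291 loci lower at day 6, 288 were also lower at day 4, which is 22.3% of the day 6 loci and 51.7% of the matched day 4 loci. Of the 1367 higher loci, 721 were higher at day 4, which is 52.7% of the day 6 loci and 47.5% of the day 4 loci. In the opposite direction at day 4 were 42 of the lower and 21 of the higher loci. The neural lists differed in how large their day 4 ratios were. At day 4 the median of the proneural list was -1.83 and that of the progenitor domain list -0.999, but that of the pan-neuronal list was -0.22 and that of the synapse list -0.18. The retinoic acid list was at -0.15 at day 4 and at -1.35 at day 6. The naive and core pluripotency lists had larger medians at day 4, 2.75 and 2.27, than at day 6. Their sums in the library labelled WT were 153 and 432 FPKM at day 4 and 1748 and 725 FPKM at day 6, in tables that were normalized separately. Pan-neuronal genes in the library labelled WT summed to 1483 FPKM at day 4 and 5925 FPKM at day 6, and in the library labelled KO to 1410 and 1480 FPKM. *Hox* genes of groups 1 to 8 summed to 642.5 and 1349 FPKM in the library labelled WT and to 438 and 185 FPKM in the library labelled KO.

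**Figure D4:**
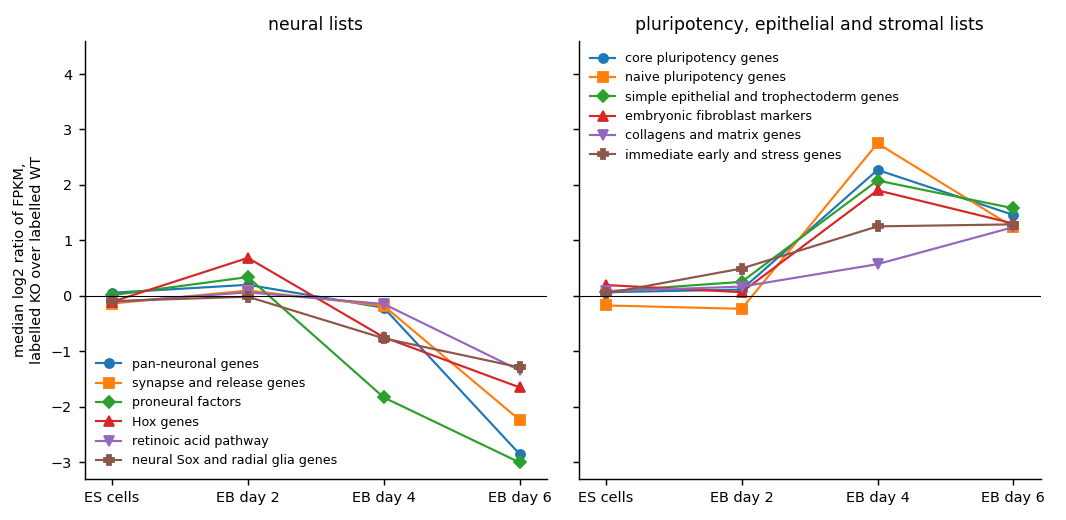
Median log2 ratio of FPKM, library labelled KO over library labelled WT (vertical), of 6 neural lists (left) and 6 pluripotency, epithelial, stromal and stress lists (right) in ES cells and at EB days 2, 4 and 6 (horizontal); each point is the median over the list's loci above 1 FPKM at that stage, from 1 library per side. In ES cells the medians lie between -0.17 and 0.19; at day 6 the neural ones lie between -3.01 and -1.29 and the others between 1.24 and 1.58.

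TAF9B and RNA POL2 peaks were set against the 12620 loci with an annotated TSS. A TAF9B peak lay within 500 bp of the TSS of 30.8% of all loci (95% Wilson interval 30 to 31.6, counting error only), 28.1% of lower loci (25.6 to 30.7) and 12.8% of higher loci (11.1 to 14.7). For RNA POL2 the shares were 53.9% of all loci, 43.6% of lower loci (40.9 to 46.4) and 12.1% of higher loci (10.4 to 14). The higher loci thus had the fewest peaks of either kind at their TSS. Since the peaks come from WT motor neuron EBs and the share of loci with a peak differed with their level, the shares were also taken within FPKM classes of the library labelled WT. Between 10 and 30 FPKM an RNA POL2 peak was present at 48.7% of 300 lower loci, 67.4% of 2919 loci within 2-fold and 25.5% of 153 higher loci. In the same class a TAF9B peak was present at 29.3%, 36.6% and 16.3%. Higher loci had the lowest share of both peaks in this class too, and what part level has in the shares was not tested. Away from the TSS each locus was put in 1 class by its nearest TAF9B peak, so the classes exclude each other. The nearest TAF9B peak lay past 500 bp and within 5 kb for 13.1% of lower loci (11.3 to 15.1), 8.83% of higher loci (7.41 to 10.5) and 7.79% of loci within 2-fold (7.28 to 8.33). Past 5 kb and within 50 kb it lay for 30.2% of lower loci (27.6 to 32.8), 35.5% of higher loci (33 to 38.2) and 29.7% of loci within 2-fold (28.8 to 30.6). These classes hold no locus with a nearer peak, so fewer peaks at the TSS leave more loci for them. No TAF9B peak lay within 50 kb for 28.7% of lower loci, 42.8% of higher loci (40.2 to 45.5) and 29% of loci within 2-fold. Above 100 FPKM in the library labelled WT the share at 0.5 to 5 kb was 24.7% of 77 lower loci (16.4 to 35.4) and 8.68% of 910 loci within 2-fold (7.02 to 10.7). In the classes from 1 to 100 FPKM it was 9.66% to 13.4% of lower loci and 6.71% to 9.73% of loci within 2-fold, and between 30 and 100 FPKM higher loci had 11.5% against 9.66% of lower loci. Examples are *Hes5*, whose nearest TAF9B peak lay 2585 bp from its TSS, and *Nefm*. *Stmn3* and *Dll1*, lower as well, had theirs at 277.5 and 175 bp. The ChIP experiment was made on 1 library per antibody, without a KO counterpart.

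**Figure D5:**
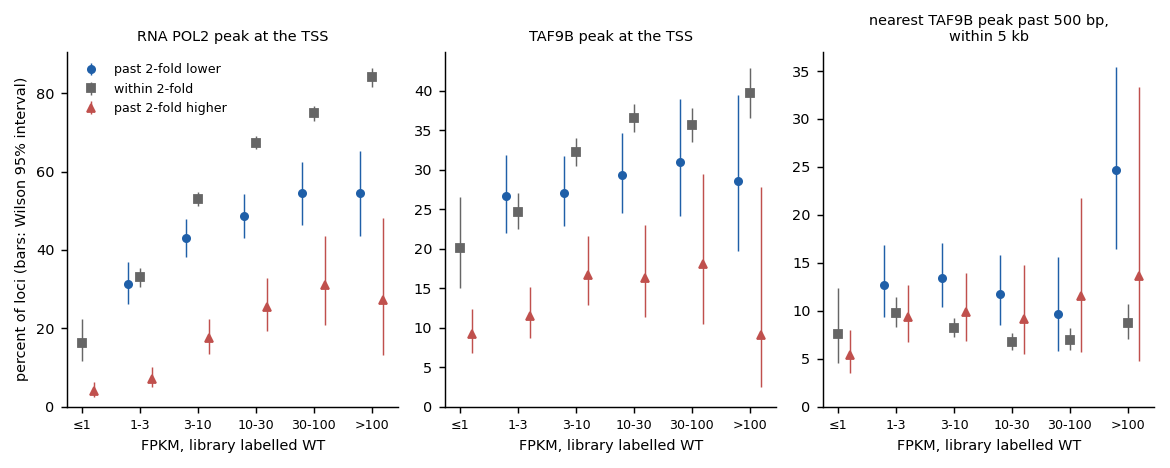
Percent of loci (vertical, bars are 95% Wilson intervals) with an RNA POL2 peak at the TSS (left), a TAF9B peak at the TSS (middle) and a nearest TAF9B peak past 500 bp and within 5 kb (right), by FPKM class in the library labelled WT (horizontal), for loci past 2-fold lower, within 2-fold and past 2-fold higher. At each level above 1 FPKM the higher loci have the smallest share of RNA POL2 peaks, and in the class above 100 FPKM the lower loci have 24.7% with a TAF9B peak at 0.5 to 5 kb against 8.68% of loci within 2-fold.

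Short letter patterns were counted on both strands of the peak windows and promoters, 11 in all, and those given here were picked with their shares in view. In TAF9B windows of 200 bases past 500 bp and up to 50 kb from a TSS, the E-box CAGCTG was present in 24.9% of 630 windows nearest to a lower locus (21.7 to 28.4), 18.6% of 2792 nearest to a locus within 2-fold (17.2 to 20) and 16.5% of 352 nearest to a higher locus (13 to 20.7). In windows at the TSS it was present in 18.5% of 367, 11.2% of 3354 and 13.9% of 173. In the same order, the general E-box CANNTG was present in 69.2%, 66.1% and 67.9% of windows past 500 bp and in 51.8%, 46.8% and 49.1% at the TSS. For TGANTCA the shares were 4.44%, 5.69% and 5.97% past 500 bp and 2.72%, 2.56% and 1.73% at the TSS. In RefSeq promoters (GRCm38.p6, from 250 bases before to 50 after the start), the AP-1 letters TGANTCA were present in 9.26% of 994 higher genes (7.61 to 11.2), 3.97% of 8227 within 2-fold, 3.72% of 913 lower genes and 7.93% of all 27025 promoters. CAGCTG was present in 20.4% of these promoters of higher genes (18 to 23), 13.8% within 2-fold, 16.9% of lower genes (14.6 to 19.4) and 16.1% of all promoters, an order other than that in the peak windows. GGGCGG was present in 45% of windows at the TSS of lower loci (39.9 to 50.1), 55% within 2-fold (53.3 to 56.7) and 64.2% of higher loci (56.8 to 70.9), but in promoters in 62.9% of lower genes, 67.9% within 2-fold and 56.5% of higher genes, against 35.9% of all promoters. TATAAA was present in 14.3% of higher genes, 6.09% within 2-fold, 8% of lower genes and 14.2% of all promoters. The promoters of higher genes thus had TGANTCA and TATAAA about as often as all promoters. A match is a description of the sequence and not of a bound site.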

How the data were processed

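The authors mapped reads to RefSeq genes with TopHat, and their deposited tables give FPKM values from Cuffdiff for 1 library per side. The deposited peak lists give a MACS score per peak, called by the authors after Bowtie mapping to mm9. Whether the IgG library served as control is not given in the sources used here, nor are tool versions. The Cuffdiff p-value and fold change columns hold the study's own comparison and were not used, and depth per library is unknown.

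Log2 ratios were computed without a pseudocount for loci above 1 FPKM in at least 1 library. Loci at 0 in 1 library stand beyond all ratios in counts and medians. Of the 13006 loci, 12891 received a symbol through RefSeq accessions. Peak midpoints were compared with GENCODE M1 transcript starts on NCBIM37 (mm9). The members and the 41 gene lists were chosen with earlier results of these data known, and no list was tested. The rule for named genes took *Taf9b* and *Taf9*, the largest ratios and FPKM differences, and in each list the highest and lowest ratios and the 4 most abundant members; not all of these are printed, and other genes were chosen after their values were seen. With 1 library per side nothing shows the spread between cultures. Intervals cover counting error only. A simulated EB day 6 table was used to check the counting, and all 200 loci changed 4-fold were recovered with 0 others among 12386 loci above 1 FPKM. Alternatives changed the FPKM minimum, pseudocount, scaling, length trend, locus status, loci per symbol and, for peaks, distance and score. The work was done in Python 3.11.15 with pandas 2.3.3, numpy 2.4.6, matplotlib 3.10.9, statsmodels 0.14.6 and scipy 1.17.1. Some genes and sequences are not reported here.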

Additional observations from a re-analysis of the deposited data

Results flagged for a closer look

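Among the genes of the lists and those named by rule, 19 were past 2-fold in opposite directions at EB day 4 and EB day 6. Of all 12047 loci above 1 FPKM in at least 1 library on both days, 42 went from higher to lower and 21 from lower to higher. With 1 library per side at each day, the difference between the days was not tested. Of the 19 genes, 14 were higher at day 4 and lower at day 6, and in each of them the level in the library labelled WT was larger at day 6 than at day 4, in tables that were normalized separately. The log2 ratio of *Cntn2* was 2.38 at day 4 and -5.22 at day 6, as its level went from 0.213 to 33.9 FPKM in the library labelled WT and from 1.11 to 0.909 FPKM in the library labelled KO. *Nefl*, the light neurofilament, went from 1.83 to -2.51, with 3.86 and 149 FPKM in the library labelled WT and 13.7 and 26.0 FPKM in the library labelled KO. The other neuronal genes ended at -3.14 for *Mnx1*, -2.72 for *Slit2*, -2.17 for *Snap91*, -1.66 for *Stmn4*, -1.55 for *Ebf1*, -1.42 for *Ngfr*, -1.29 for *Pou3f1*, and -1.05 for *Sema6a* and *Pcsk1n*. *Col2a1* ended at -1.25, *Foxf1a* at -1.14 and *Hoxb1* at -1.05. At day 4 *Cntn2*, *Ebf1*, *Ngfr* and *Foxf1a* were above 1 FPKM in the library labelled KO only, at 1.04 to 1.48 FPKM. At day 6 *Cntn2* and *Ebf1* were above 1 FPKM in the library labelled WT only.

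The 5 genes lower at day 4 and higher at day 6 were *Col4a1* (1.71 at day 6), *Thbs1* (1.70), *Myl7* (1.09), *Acta2* (1.04) and *Wnt5a* (1.01). For *Col4a1* the level went from 50.7 to 13.01 FPKM in the library labelled WT and from 24.9 to 42.4 FPKM in the library labelled KO. *Acta2* and *Myl7* were above 1 FPKM at day 4 in the library labelled WT only, and *Acta2* at day 6 in the library labelled KO only.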

How the results depend on the processing

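No paired analysis was possible because each side has 1 library, and for the same reason no replicate could be left out. The number of lower loci went from 1291 to 790 with a minimum of 5 FPKM, 838 above 1 FPKM in both libraries and 2140 without a minimum, and that of higher loci from 1367 to 768, 904 and 2610, and to 822 with 1 FPKM added to both values. These alternatives keep fewer or more loci, or shrink the ratios of weak ones, by construction. Scaling both libraries to the same FPKM sum moved the median to 0.065 and the share of lower loci among those past 2-fold from 48.6% to 43.9%. Of the list medians, 464 of 490 stayed within 1.5-fold of the reported value and 2 changed sign with sizes above 0.1 on both sides of 0: neuropeptides and granins to 0.18 above 1 FPKM in both libraries, and muscle and cartilage markers to -1.05 with a minimum of 5 FPKM, where the list has fewer members. Above 1 FPKM in both libraries the median of motor neuron factors was -0.79 and that of proneural factors -1.33, and 27.3% of ion channel and receptor genes were lower against 52.4% as reported. With a minimum of 5 FPKM the interneuron median was 1.56 against 0.17, and that of progenitor domain factors -1.83 against -0.78. The *Hox* median was -0.38 without a minimum and -3.02 with a minimum of 5 FPKM. The share of lower loci with a TAF9B peak at the TSS was 31.3% within 1000 bp and 17.8% with peaks of a score above the median, and that of higher loci 8.07% with the latter. For RNA POL2 these shares were 47.6% and 22.4% of lower loci and 4.64% of higher loci. Since fragment counts are unknown, the ratio of a locus near 1 FPKM carries a counting error that could not be given.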

Other observations

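Some genes known from trophoblast-derived placental cells were past 2-fold higher at day 6, given here as values for symbol families picked with the ratios already in view. The 7 prolactin family (Prl) genes above 1 FPKM were each under 1 FPKM in the library labelled WT, so they could enter only through the library labelled KO and their number says nothing about the family. *Prl2a1* was at 0.372 and 8.40 FPKM, and *Prl2c* copies share reads. *Tpbpa*, a spongiotrophoblast gene, was at 0.0782 and 8.70 FPKM (log2 ratio 6.80), and *Plac1* at 4.08 and 20.8 FPKM (2.35). The X-linked homeobox genes *Rhox6* and *Rhox9* were at 27.6 and 148 FPKM (2.43) and at 24.0 and 113 FPKM (2.23), while *Rhox1* (0.45), *Rhox13* (0.68), *Ceacam1* (0.70) and *Ceacam10* (0.50) were within 2-fold. The ratios of 9 *Serpinb* genes ran from 1.02 for *Serpinb6a* to 4.21 for *Serpinb9c*, but 6 of them were under 1 FPKM in the library labelled WT and likewise entered through the other library, and *Serpinb9* copies are near-identical. *Tpbpa* was at 0 and 0.929 FPKM at day 4.

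Of 13 matrix metalloproteinase (Mmp) genes 9 were past 2-fold higher and 1 lower, and 3 of the 9 entered only through the library labelled KO. The lower one was *Mmp24*, a membrane-type member, at 3.70 and 0.358 FPKM (-3.37), whereas *Mmp14*, another, was at 17.9 and 44.4 FPKM (1.31). *Anxa1*, an annexin, was at 15.2 and 72.3 FPKM (2.25). *Hprt*, an X-linked purine salvage gene, was at 29.8 and 98.4 FPKM (1.72) at day 6 and at 5.03 and 70.1 FPKM (3.80) at day 4, against 142 and 179 FPKM in ES cells.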
